A study of Mus musculus with 16 samples.

Results

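The retinaldehyde dehydrogenases Aldh1a1, Aldh1a2, Aldh1a3 and Aldh1a7 were examined in targeted RNA sequencing (CaptureSeq) of mouse tissues, in which RNA libraries were enriched with oligonucleotide probes before sequencing. Assembled transcripts were given to the GENCODE gene with which they shared the most exonic bases on the same strand, and the values of all transcripts given to 1 of the 4 symbols were summed in each library. This gave 4 of 40383 genes with a GENCODE symbol and 31 of 137561 transcripts, of which 18 belonged to Aldh1a1, 4 to Aldh1a2, 6 to Aldh1a3 and 3 to Aldh1a7. The 4 genes were chosen by family and on their measured levels in the tissues of these libraries, so their differences between tissues are given as a description with no test.

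Tissues came from adult C57BL/6J mice with no other genotype or treatment. Brain was sampled as a whole and as cerebellum, cortex and olfactory bulb (4 brain tissues), and it was compared with heart, kidney, liver and a tissue labelled testes (4 nonbrain tissues). Each tissue had 1 library captured with probes against long noncoding RNA loci (the lncRNA design) and 1 captured with probes next to annotated splice sites (the splice junction design), which made 16 libraries. The splice junction probes left out regions that were very abundant in brain RNA. RNA of each nonbrain tissue was pooled from 2 pieces of the same organ of 1 mouse, and how many mice gave the brain tissues is not stated in the sources used here. Brain and nonbrain RNA was extracted with different kits, captured in separate pools and amplified with different numbers of PCR cycles, so these steps and the brain and nonbrain groups cannot be told apart. A value of 1 tissue in 1 design is a single library, and the intervals printed beside such values are 95% intervals that cover counting error only.

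Retinaldehyde dehydrogenases carry out the last step of retinoic acid synthesis, the oxidation of retinaldehyde that retinol dehydrogenases make from vitamin A. Retinoic acid then binds nuclear receptors (RAR and RXR), and CYP26 enzymes degrade it. Aldh1a1 (RALDH1) is abundant in liver and marks a group of dopaminergic neurons, Aldh1a2 (RALDH2) is the main enzyme of the early embryo and of the adult meninges, and Aldh1a3 (RALDH3) is known from epithelia and the developing eye and forebrain. Aldh1a7 is a rodent relative of Aldh1a1 whose product is thought to act little on retinaldehyde.

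Libraries held 8930235 to 21113104 estimated fragments in the lncRNA design and 14309222 to 43889288 in the splice junction design, of which 7.81 to 45.6% were ERCC spike-in RNA. Values are normalised fragment counts, the estimated fragments of a transcript times a factor per library, by which 1 fragment was worth 0.289 to 1.60 units in the splice junction design and 1.14 to 4.77 units in the lncRNA design. In the splice junction design 7 of 8 hepatocyte genes were highest in liver, 8 of 9 kidney tubule genes in kidney, 6 of 7 heart muscle genes in heart and 5 of 5 measured neuron genes in a brain tissue. The tissue labelled testes went against its label, since 0 of 10 germ cell genes were highest there, the sperm genes Prm2, Tnp1, Tnp2 and Acrv1 were listed at 0, and 9 of 10 keratinocyte genes were highest there. It is called the tissue labelled testes throughout. Lrp2 in kidney and Myh6 in heart, which these tissues express strongly, were also listed at 0 in the splice junction design, so a value of 0 can be a failed estimate.

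The 4 genes lie on 3 chromosomes of GRCm38. Aldh1a1 (ENSMUSG00000053279.8) spans chr19:20492715-20643465 on the plus strand, and Aldh1a7 (ENSMUSG00000024747.3) spans chr19:20692953-20727562 on the minus strand, with 49487 bases between their ends. Aldh1a2 (ENSMUSG00000013584.5) spans chr9:71215789-71296243 on the plus strand and Aldh1a3 (ENSMUSG00000015134.15) spans chr7:66390890-66427517 on the minus strand. The coding sequence of Aldh1a7 was 91.6% identical to that of Aldh1a1 over 1506 bases, whereas the other pairs shared 68.7 to 69.9% of their aligned bases. The longest identical run of the Aldh1a1 and Aldh1a7 coding sequences was 100 bases, and 0 of the 1405 windows of 1 read length in the Aldh1a1 coding sequence also occurred in Aldh1a7. The first 66 coding bases show how close the pair is, with the 3 differing bases in capitals.
Aldh1a1 coding start: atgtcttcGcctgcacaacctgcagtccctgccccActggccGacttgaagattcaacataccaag
Aldh1a7 coding start: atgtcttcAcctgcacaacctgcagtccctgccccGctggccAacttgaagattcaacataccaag

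Summed over all its transcripts, Aldh1a1 had the highest level of the 4 genes per kilobase in all 8 tissues of both designs. In FPKM, fragments per kilobase of transcript scaled to the endogenous fragments of the library, the summed level of the 4 genes in the splice junction design was 2405 in liver, 1896 in cerebellum, 1296 in whole brain, 508 in cortex, 369 in olfactory bulb, 263 in the tissue labelled testes, 167 in heart and 67.1 in kidney. Aldh1a1 made up 98.4% of this sum in cerebellum, 94.8% in cortex, 93.8% in whole brain, 81.9% in heart, 81.2% in liver, 79.0% in olfactory bulb, 53.5% in kidney and 46.8% in the tissue labelled testes. The second gene by FPKM differed between tissues. It was Aldh1a2 in olfactory bulb (15.9% of the sum), Aldh1a3 in the tissue labelled testes (38.7%) and Aldh1a7 in kidney (30.2%) and liver (18.7%). The Aldh1a1 sums include short transcripts, described below, which made up 61.5% of its FPKM in cerebellum and 49.7% in the tissue labelled testes. In the lncRNA design they made up 73.6 to 98.7%. The long Aldh1a1 transcripts alone had 61.8 FPKM in the tissue labelled testes in the splice junction design, below Aldh1a3 at 101.6. In every other library they stayed above the other genes.

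**Figure D1:**
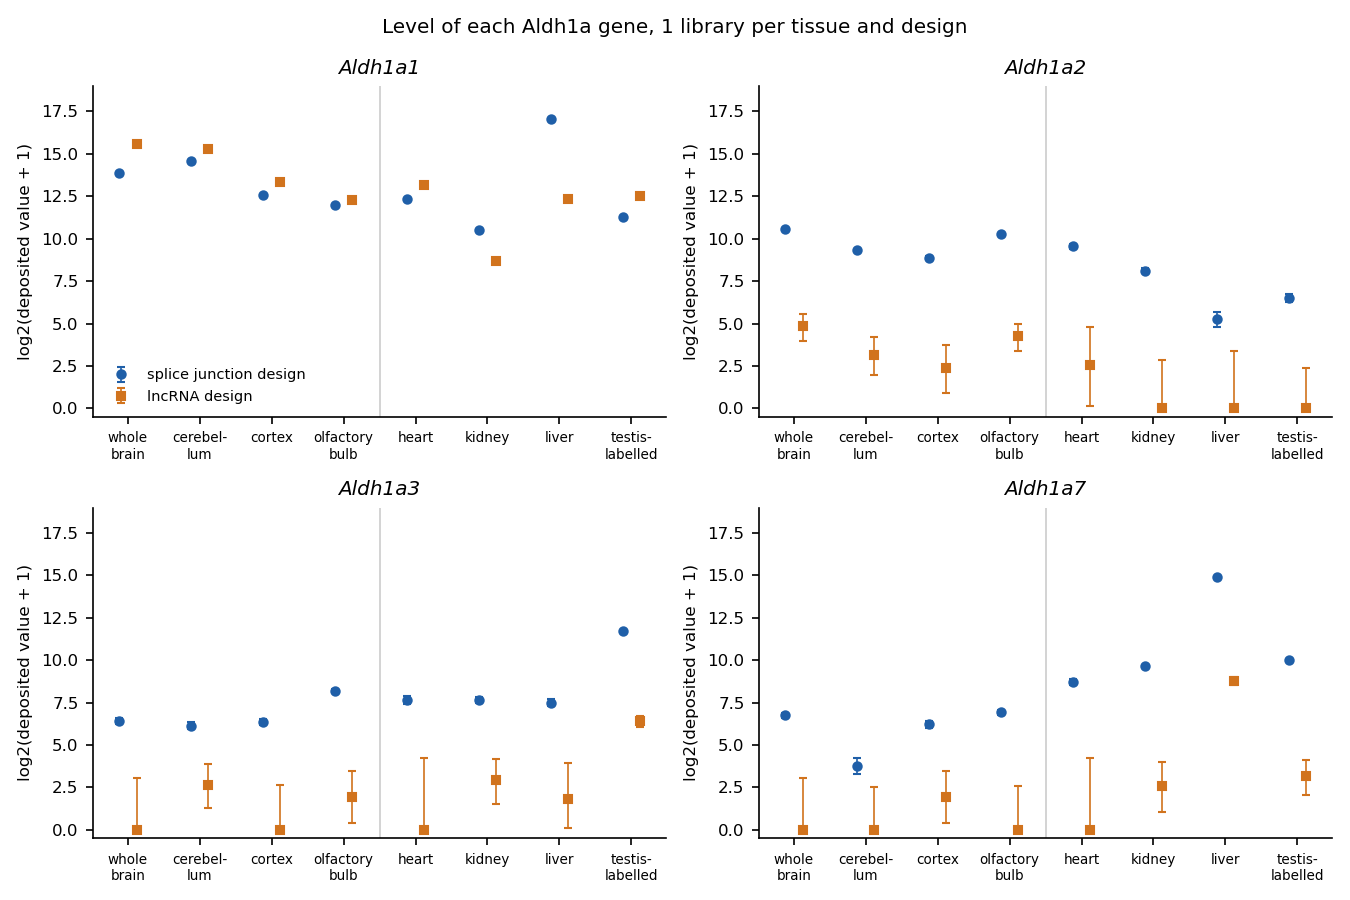
Level of Aldh1a1, Aldh1a2, Aldh1a3 and Aldh1a7 as log2(normalised fragment count + 1) in the 8 tissues, with 1 point per library (circles for the splice junction design, squares for the lncRNA design) and bars for the 95% counting interval. Aldh1a1 reached 135535 in liver in the splice junction design but was highest in whole brain, at 49257, in the lncRNA design.

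The splice junction design gave Aldh1a1 normalised fragment counts of 15225 in whole brain, 24854 in cerebellum, 6182 in cortex, 4125 in olfactory bulb, 5104 in heart, 1459 in kidney, 135535 in liver and 2512 in the tissue labelled testes. Liver stood 5.45-fold above cerebellum, the next tissue, and the values of neighbouring tissues in this order had counting intervals that did not overlap. On a per-million scale, in which fragments are divided by all endogenous fragments of the library, the liver to cerebellum ratio was 1.77. Aldh1a1 followed another order in the lncRNA design, with 49257 in whole brain, 40603 in cerebellum, 10482 in cortex, 9144 in heart, 5864 in the tissue labelled testes, 5245 in liver, 4879 in olfactory bulb and 411 in kidney. Here the level of whole brain was 9.39-fold above that of liver, and only the intervals of liver and olfactory bulb overlapped. Whole brain was above kidney in both designs, 10.4-fold in the splice junction design (20.7-fold on the per-million scale) and 120-fold in the lncRNA design. Since tissues are mixtures of cells, fewer cells of a type and less RNA per cell cannot be told apart in these values.

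The transcripts that carried Aldh1a1 differed between tissues and between designs. Of the 18 assembled transcripts, 8 were long, reached the last coding exon and held 12 of the 13 exons of the annotated transcript Aldh1a1-201 unchanged, and 10 were short and ended before exon 5 of an annotated 16-exon transcript that begins upstream. Exons are numbered by that upstream transcript below. The start of Aldh1a1-201 lies 109246 bases downstream of its start, and the start codon (chr19:20602012) is in exon 4. All 8 assembled transcripts with the start codon exon had it as the internal exon chr19:20601998-20602077, and 0 of 18 held the 37 bases chr19:20601961-20601997 with which Aldh1a1-201 begins. The first 30 of those 37 bases are shown because they would tell a transcript that begins at the downstream start from one that is spliced into it. The 4 junctions are shown because they separate the upstream transcripts from each other, and they include an extra exon between exons 3 and 4 that another annotated transcript holds. Capitals mark the bases of the downstream exon.
First bases of Aldh1a1-201: cagaaccaatttgctgagcctgtcacctgt
Exon 3 to exon 4 (start codon exon): gagccaggaccaaagGAGCCAAACCAGCAA
Exon 3 to exon 5 (start codon exon skipped): gagccaggaccaaagATCTTCATAAACAAT
Exon 3 to the extra exon: gagccaggaccaaagGGACCACTTTCCACT
Extra exon to exon 4: cctggctaagtggctGAGCCAAACCAGCAA

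**Figure D2:**
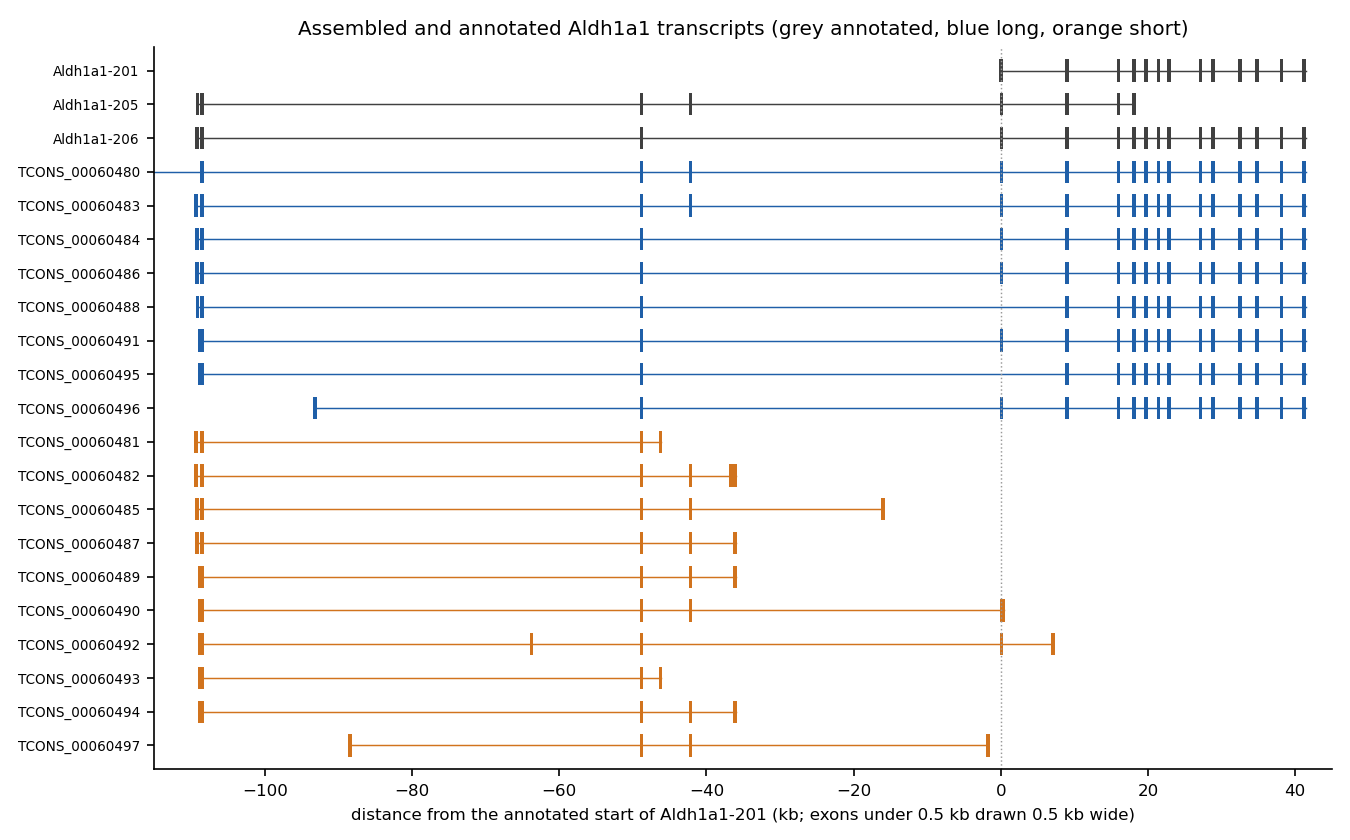
Exons of the annotated and assembled Aldh1a1 transcripts by distance from the annotated start of Aldh1a1-201 (kb), with 1 row per transcript, grey for annotated, blue for long and orange for short transcripts. Exons under 0.5 kb are drawn 0.5 kb wide, and the first exon of TCONS_00060480 lies outside the axis. All 8 long transcripts hold the shared exons at the right, and the 10 short transcripts stop before exon 5.

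Short transcripts carried a larger part of Aldh1a1 in brain than in liver or kidney in the splice junction design. Their share of the gene's fragments was 23.3% (22.9 to 23.7%) in whole brain, 25.5% in cerebellum, 25.7% in cortex and 17.1% in olfactory bulb. The share was 8.52% in heart, 18.5% in the tissue labelled testes, 0.801% (0.487 to 1.24%) in kidney and 0.0647% (0.0534 to 0.0788%) in liver. The tissue labelled testes thus lay within the range of the brain tissues, and the other 3 nonbrain tissues lay below it. In the lncRNA design the short share was 90.9% in whole brain, 92.2% in cerebellum, 91.2% in cortex, 90.4% in olfactory bulb, 94.3% in heart, 89.1% in kidney, 41.2% in liver and 93.5% in the tissue labelled testes. The share was higher in the lncRNA design than in the splice junction design in 8 of 8 tissues, and liver had the lowest share in both. Where the probes of each design lie in the gene was not analysed here.

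The short transcript TCONS_00060485 (507 nt, 5 exons, from chr19:20492715 to 20585980) belongs to the gene model XLOC_025943 and ends before the start codon exon. In the splice junction design its normalised fragment count was 3266 in whole brain (21.5% of Aldh1a1), 5550 in cerebellum (22.3%), 1469 in cortex (23.8%), 641 in olfactory bulb (15.5%), 265 in heart (5.20%) and 375 in the tissue labelled testes (14.9%). It was listed at 0 in kidney and in liver. Its lncRNA design count was 30098 in whole brain, 24428 in cerebellum, 6760 in cortex, 2912 in olfactory bulb, 5285 in heart, 195 in kidney, 853 in liver and 3448 in the tissue labelled testes. It made up 57.8 to 64.5% of Aldh1a1 there in every tissue except kidney (47.5%) and liver (16.3%), so its share in heart and the tissue labelled testes was close to its share in brain.

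In liver nearly all Aldh1a1 fragments of the splice junction design fell on 1 long transcript, TCONS_00060496 (15 exons, 2139 nt), whose first exon is a 21-nt exon at chr19:20508759-20508779. It holds exon 3 and the start codon exon but lacks exon 2 (chr19:20493395-20493524), which 16 of the 18 transcripts hold. TCONS_00060496 took 97.8% of Aldh1a1 in liver (132527), 54.0% in kidney (788), 25.2% in heart (1285) and 19.7% in the tissue labelled testes (494). Its share was 16.2% in whole brain (2468), 11.9% in cerebellum (2949), 24% in cortex (1486) and 24.9% in olfactory bulb (1029). Transcripts with exon 2 accordingly made up 2.2% of Aldh1a1 in liver and 45.6% in kidney, against 75.1 to 88.1% in the 4 brain tissues. The lncRNA design put 81.8% on such transcripts in liver, 99.4% in kidney and 99.1 to 100% in the brain tissues. In that design TCONS_00060496 took 18.2% of Aldh1a1 in liver (955) and at most 0.924% in any other tissue. The table holds a value per transcript and none per exon, and 12 of the 13 exons of Aldh1a1-201 are held by each long transcript, so these values do not tell at which start the liver RNA began. In the splice junction design TCONS_00060496 stood at 0.970% of its liver value in heart, 0.595% in kidney and 0.373% in the tissue labelled testes. Each of the 8 hepatocyte genes stood higher there, as set out below. The part of liver RNA in the Aldh1a1 transcript shares of these nonbrain tissues was not tested.

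In the splice junction design brain transcripts also differed from those of liver and kidney in their inner exons, and for kidney this did not hold in the lncRNA design. Splice junction transcripts with the extra exon (chr19:20559764-20559864, 101 nt) made up 45.5% of Aldh1a1 in whole brain, 49.4% in cerebellum, 45.1% in cortex, 42.8% in olfactory bulb and 36.7% in the tissue labelled testes. They made up 15.1% in heart, 5.41% in kidney and 0.275% in liver. The long transcript TCONS_00060483, which has this exon, took 20.6% of Aldh1a1 in whole brain, 23.0% in cerebellum, 13.2% in cortex and 20.1% in olfactory bulb. It took 13.7% in the tissue labelled testes, 6.64% in heart, 4.61% in kidney and 0.167% in liver. TCONS_00060491 begins at a neighbouring upstream first exon (chr19:20493003-20493223) and took 25.9% of Aldh1a1 in whole brain, 26.9% in cerebellum, 15.4% in cortex, 8.21% in olfactory bulb, 7.03% in heart and 14.9% in the tissue labelled testes. It was listed at 0 in kidney and liver in that design. Long transcripts that skip the start codon exon and join exon 3 to exon 5 made up 52.6% of Aldh1a1 in heart and 40.5% in kidney, against 11.3 to 23.6% in the 4 brain tissues, 28.4% in the tissue labelled testes and 1.94% in liver. The lncRNA design gave the extra exon 86.2% of Aldh1a1 in kidney, 85.3% in heart, 87.4% in the tissue labelled testes and 62.3% in liver, against 82.1 to 85.2% in the brain tissues, so that only liver lay below brain. Transcripts that skip the start codon exon were at 0% in kidney and liver and 0.631% in heart there, against 0.906 to 1.30% in brain. The counting intervals of kidney (0 to 1.56%) and heart (0.358 to 1.09%) overlapped those of the brain tissues. The higher share of kidney and heart was thus not seen in that design, and their order against brain is not settled. TCONS_00060491 took 14.0% in liver and 4.29% in kidney in that design, against 0.00903 to 4.66% in brain, and TCONS_00060483 took 26.6% in liver, against 2.38 to 5.03% in brain.

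**Figure D3:**
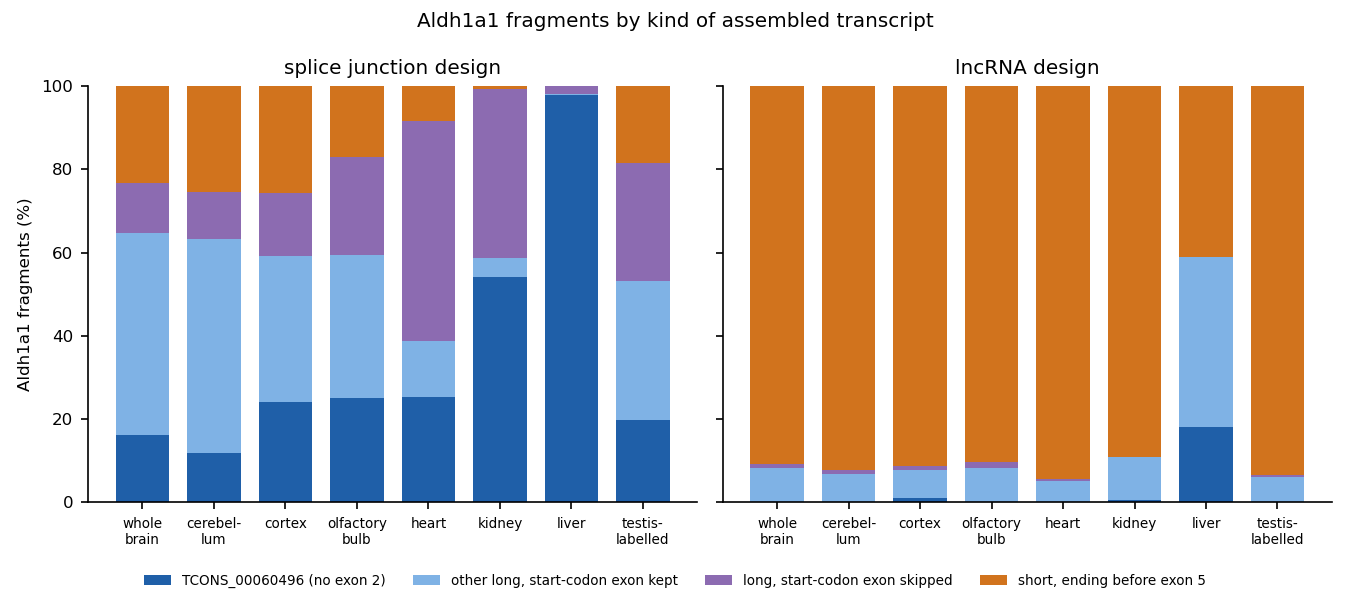
Share of Aldh1a1 fragments (percent) on short transcripts and on 3 kinds of long transcript, with 1 stacked bar per library and the 2 designs in separate panels. In the splice junction design TCONS_00060496 fills 97.8% of the liver bar, and in the lncRNA design short transcripts fill 89.1 to 94.3% of every bar except that of liver, at 41.2%.

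The RefSeq windows around the 2 annotated Aldh1a1 starts and the Aldh1a7 start were set side by side. No assembled transcript began at the downstream Aldh1a1 start. The upstream RefSeq start, chr19:20492583, was not the first base of an assembled transcript either, and the nearest assembled start was chr19:20492602. TCONS_00060496, the main Aldh1a1 transcript of liver in the splice junction design, began at chr19:20508759. The windows below run from 250 bases before to 20 bases after each start in GRCm38.p6, and capitals mark matches to the searched letters. The full 300-base windows were searched on both strands for 5 short motifs. The TATA box letters TATAAA occur in 13.6% of all 32851 RefSeq promoter windows of this length. The CCAAT box letters CCAAT occur in 37.4%, and the GC box letters GGGCGG in 35.7%. The letters AGGTCA of a nuclear receptor half-site occur in 16.3%, and the letters GTTAAT of an HNF1 half-site in 7.10%. The upstream Aldh1a1 window held 0 matches, the downstream Aldh1a1 window held CCAAT at -72 and -2, and the Aldh1a7 window held CCAAT at -137 and -72, TATAAA at -244 and GTTAAT at -150. The Aldh1a2 window held CCAAT at -36. The Aldh1a7 window was 77.5% identical to the downstream Aldh1a1 window over 285 aligned bases and 65.3% identical to the upstream one over 262.
Aldh1a1 upstream start, chr19:20492333-20492602, plus strand: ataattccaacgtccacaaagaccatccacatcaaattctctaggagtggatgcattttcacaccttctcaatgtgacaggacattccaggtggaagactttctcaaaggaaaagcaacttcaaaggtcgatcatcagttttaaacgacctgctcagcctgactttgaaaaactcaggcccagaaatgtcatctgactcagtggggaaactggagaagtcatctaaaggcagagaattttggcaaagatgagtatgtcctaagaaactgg
Aldh1a1 downstream start, chr19:20601718-20601987, plus strand: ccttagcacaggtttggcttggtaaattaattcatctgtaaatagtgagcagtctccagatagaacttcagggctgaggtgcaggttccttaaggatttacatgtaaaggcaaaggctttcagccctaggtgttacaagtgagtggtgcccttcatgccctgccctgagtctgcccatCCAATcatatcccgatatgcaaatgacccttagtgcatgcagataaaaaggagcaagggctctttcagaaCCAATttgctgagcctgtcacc
Aldh1a7 start, chr19:20727537-20727806, minus strand: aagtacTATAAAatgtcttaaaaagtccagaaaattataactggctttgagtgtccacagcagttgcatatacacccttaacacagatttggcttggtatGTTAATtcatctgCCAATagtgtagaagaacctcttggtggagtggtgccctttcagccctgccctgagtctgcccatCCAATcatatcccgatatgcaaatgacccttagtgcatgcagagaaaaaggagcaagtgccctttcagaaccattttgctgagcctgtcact

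Aldh1a2 was highest in whole brain and olfactory bulb and lowest in liver. Its normalised fragment count in the splice junction design was 1542 in whole brain, 1256 in olfactory bulb, 751 in heart, 646 in cerebellum, 468 in cortex, 274 in kidney, 89.6 in the tissue labelled testes and 37.4 in liver. No neighbours in this order had overlapping counting intervals, and heart lay among the brain tissues. On the per-million scale heart (36.5) lay below all 4 brain tissues, of which cortex was lowest (45). Whole brain was 2.05-fold above heart and 41.2-fold above liver, and 4.41-fold and 139-fold above them on the per-million scale. The gene was near its limit of detection in the lncRNA design, with 27.4 in whole brain, 18.0 in olfactory bulb, 7.88 in cerebellum, 4.77 in heart and 4.21 in cortex. It was listed at 0 in kidney, liver and the tissue labelled testes, where 3 fragments would have given 5.07, 7.72 and 3.42. Intervals of all neighbouring tissues overlapped in that design. The transcript with the exon chain of Aldh1a2-201, TCONS_00124214, carried 73.5 to 95.2% of the gene in the splice junction design, and TCONS_00124216, which begins at chr9:71216646, carried up to 26.3% (in liver).

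Genes of leptomeninges and fibroblasts, in which Aldh1a2 is known, did not follow its order. Their summed level in the splice junction design (FPKM, 10 of 10 measured) was 361 in whole brain, 247 in cerebellum, 148 in cortex and 433 in olfactory bulb, but 2165 in heart, 1360 in the tissue labelled testes, 779 in liver and 447 in kidney. Across the 4 brain tissues the order of that sum was the order of Aldh1a2 except that olfactory bulb stood above whole brain. Genes of dopaminergic neurons, in which Aldh1a1 is known, had summed levels of 313 in olfactory bulb, 165 in whole brain and 34.0 in cortex, and of 29.1 in cerebellum, where Aldh1a1 was highest among the brain tissues. The part of these cell types in the levels of the 4 genes was not tested.

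Aldh1a3 was highest in the tissue labelled testes. Its normalised fragment count in the splice junction design was 3404 there, 292 in olfactory bulb, 203 in kidney, 201 in heart, 178 in liver, 83.3 in whole brain, 81.8 in cortex and, as the lowest value, 69.8 in cerebellum. Intervals overlapped among kidney, heart and liver and among whole brain, cortex and cerebellum, so the normalised counts do not rank the tissues within each set. The order of the low tissues depended on the scale, since on the per-million scale liver (5.49) lay below cerebellum (6.63), cortex (7.88) and whole brain (8.68). Kidney (10.6) and heart (9.74) stood above liver on that scale. The tissue labelled testes was 11.7-fold above olfactory bulb, and olfactory bulb was the highest brain tissue. The tissue labelled testes had 83.2 in the lncRNA design, and the other 7 tissues had between 0 and 6.76 with intervals that overlapped. TCONS_00113891, with the exon chain of Aldh1a3-201, carried 65.0% of the gene in the tissue labelled testes, where TCONS_00113892, which ends early at chr7:66399895, carried 27.7%.

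The library with the most Aldh1a3 went against its label, and 9 of 10 keratinocyte genes were highest there too. The summed FPKM of the 10 keratinocyte genes was 5893 in the tissue labelled testes and between 6.46 and 99.8 in the other 7 tissues. As a share of the value in the tissue labelled testes, Aldh1a3 was at 5.89% in heart, 5.95% in kidney and 5.24% in liver. The 9 keratinocyte genes set beside it were kept because they were highest in the tissue labelled testes. Low shares elsewhere follow in part from that choice. Their median was 1.84% in heart, 1.94% in kidney and 3.96% in liver, and the highest gene was at 9.51%, 22.8% and 14.8%. In the 4 brain tissues Aldh1a3 was at 2.05 to 8.56%, and the keratinocyte median was between 0 and 0.0362%, with the highest gene at up to 18.8% (olfactory bulb). The part of keratinocytes in the level of Aldh1a3 was not tested. Without the tissue labelled testes, the highest level of Aldh1a3 was that of olfactory bulb, 1.44-fold above kidney (30.4 against 10.6 on the per-million scale).

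Aldh1a7 was high in liver and low in brain. Its normalised fragment count in the splice junction design was 30109 in liver, 1024 in the tissue labelled testes, 795 in kidney, 425 in heart, 121 in olfactory bulb, 107 in whole brain and 73.3 in cortex, with cerebellum lowest at 12.7. Liver was 29.4-fold above the next tissue and 281-fold above whole brain (12.7-fold and 83.1-fold on the per-million scale). The intervals of olfactory bulb and whole brain overlapped, and those of the other neighbours did not. Liver had 437 in the lncRNA design, and the other tissues had between 0 and 7.98. TCONS_00062449, with the exon chain of Aldh1a7-201, carried 94.0 to 100% of the gene in the splice junction design.

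Aldh1a7 did not follow the long transcripts of its relative Aldh1a1. In the splice junction design its fragments came to 0.0683% of those of the long Aldh1a1 transcripts in cerebellum, 0.917% in whole brain, 1.60% in cortex, 3.53% in olfactory bulb and 9.10% in heart. They came to 22.2% in liver, 50.0% in the tissue labelled testes and 55.0% in kidney. Cerebellum, with the second highest level of Aldh1a1, thus had the lowest level of Aldh1a7. The counting did not state how fragments that match both genes were divided, and the low ratio in cerebellum is an upper limit on how far Aldh1a1 fragments were given to Aldh1a7 in that library.

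Hepatocyte genes were present at a low level in the nonbrain libraries, which shared a capture pool with liver. As a share of the liver value in the splice junction design, the 8 hepatocyte genes had a median of 1.31% in heart (range 1.04 to 3.10%), 0.980% in kidney (0.639 to 79.9%, the highest being Hnf4a, a gene of kidney tubules too) and 0.578% in the tissue labelled testes (0.493 to 1.53%). Their median was 0 in each brain tissue. Aldh1a7 stood at 1.41% of its liver value in heart, 2.64% in kidney and 3.40% in the tissue labelled testes. TCONS_00060496 of Aldh1a1 stood at 0.970% of its liver value in heart, 0.595% in kidney and 0.373% in the tissue labelled testes, each below the lowest of the 8 hepatocyte genes there. Total Aldh1a1 stood at 3.77% in heart, 1.08% in kidney and 1.85% in the tissue labelled testes. The part of liver RNA in these values was not tested. In the brain libraries, where 5 or 6 of the 8 hepatocyte genes were listed at 0, TCONS_00060496 stood at 0.776 to 2.23% of its liver value and Aldh1a7 at 0.0420 to 0.401%.

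**Figure D4:**
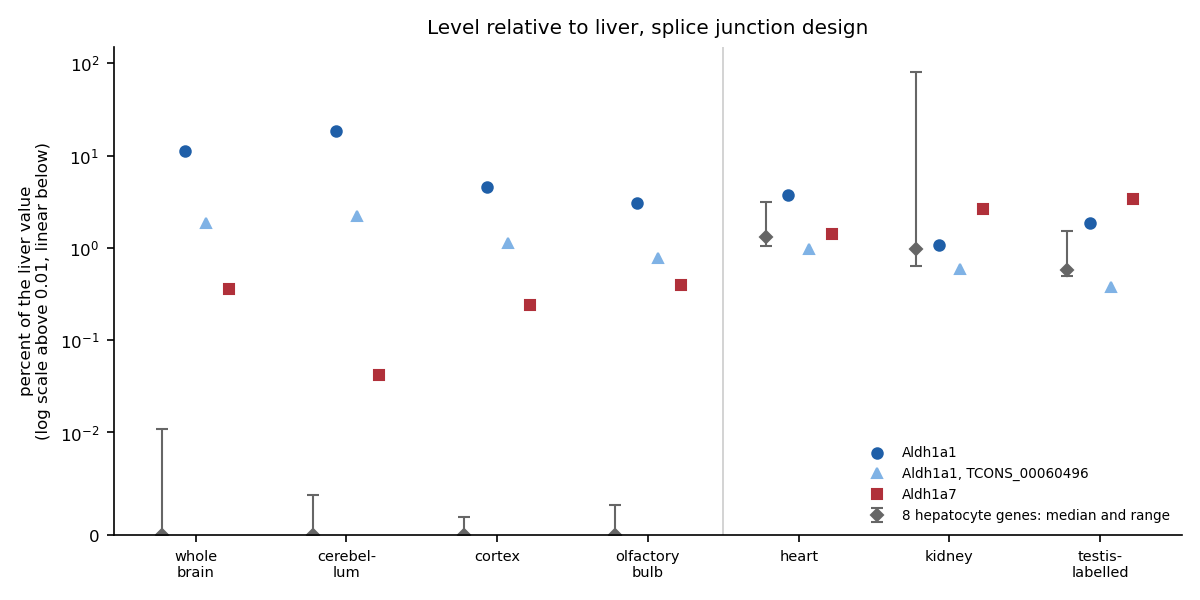
Levels in the splice junction design as a percentage of the liver value (log scale above 0.01%, linear below) for the 8 hepatocyte genes (diamond at the median, bar over the range) and for Aldh1a1, TCONS_00060496 and Aldh1a7, by tissue. In heart, kidney and the tissue labelled testes Aldh1a7 lies at 1.41 to 3.40%, and in brain it lies at 0.0420 to 0.401% while the median of the hepatocyte genes is 0.

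The capture designs were compared within tissue with limma on log2(value + 1), with 8 tissues and Benjamini-Hochberg adjustment over all 30779 genes tested. Of these, 60.1% had higher and 34.6% lower values in the lncRNA design, and the median gene was 2.62 higher on the log2 scale. Per the study's methods, lncRNA targets were chosen to overlap protein-coding exons little, whereas the splice junction probes lie in exons of annotated genes. Lower values of protein-coding genes in the lncRNA design are thus built into the probes, and the p-values below describe capture only. Aldh1a2 was lower in the lncRNA design in 8 of 8 tissues, with a log2 difference of -6.42 ± 0.31 (SE, limma adjusted p = 2.17e-08). Aldh1a3 (-5.74 ± 0.42, limma adjusted p = 4.61e-07) and Aldh1a7 (-6.31 ± 0.52, limma adjusted p = 1.16e-06) were each lower in 8 of 8 tissues as well. Aldh1a1 did not pass, with a difference of -0.13 ± 0.67 (limma adjusted p = 0.853), and was higher in the lncRNA design in 6 of 8 tissues, kidney and liver being the exceptions. Without liver the difference of Aldh1a1 was 0.52 (limma adjusted p = 0.235) and without kidney 0.11 (limma adjusted p = 0.884). The lncRNA design therefore hardly measured the other 3 genes, and its Aldh1a1 level combined opposite shifts. Long Aldh1a1 transcripts were lower in that design in every tissue, with 4481 against 11678 in whole brain and 3084 against 135447 in liver. Short ones were higher in every tissue, with 44777 against 3546 in whole brain and 2160 against 87.7 in liver. These shifts of the long and short transcripts are a description with no test. With 1 library per tissue and design, these p-values measure how much the difference between designs varied from tissue to tissue.

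Brain and nonbrain tissues differed by 1.46 in Aldh1a1, 2.72 in Aldh1a2, -1.76 in Aldh1a3 and -4.02 in Aldh1a7 on the log2(value + 1) scale, brain minus nonbrain and averaged over both designs. These differences were known when the genes were chosen and have no test. Brain and nonbrain values overlapped for Aldh1a1 in both designs and, in the splice junction design, for Aldh1a2 through heart and for Aldh1a3 through olfactory bulb. The overlap of Aldh1a2 was absent on the per-million scale, and the 4 nonbrain values of Aldh1a7 lay above the 4 brain values in the splice junction design. The size of this contrast differed between designs in 18.2% of all genes tested (limma adjusted p under 0.05), and in 0 of the 4 retinaldehyde dehydrogenases (limma adjusted p of 0.310 for Aldh1a1, 0.544 for Aldh1a2, 0.905 for Aldh1a3 and 0.216 for Aldh1a7). At that share 0 of 4 genes says little, and Aldh1a2, Aldh1a3 and Aldh1a7 had few or no lncRNA design fragments in most tissues. The count thus does not show that the designs agree. For Aldh1a1 liver was 8.90-fold above whole brain in the splice junction design and 9.39-fold below it in the lncRNA design.

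Other genes of retinoid metabolism were counted by their role. Of 66 listed retinoid and aldehyde dehydrogenase genes, 60 were tested with limma over the 8 tissues, averaged over both designs, and 1 was higher in brain, 22 were lower and 37 did not pass (adjusted p under 0.05 over all genes). The lncRNA design alone gave 0 higher and 11 lower. Whole brain takes in the other brain tissues, so the brain values are not independent and the p-values may be too small. Without whole brain 1 was higher and 17 were lower. Over all 30779 genes, 22.8% were higher in brain and 8.39% lower, and the median difference was 0.35, against -1.88 for the 60 genes. The 30779 genes include assembled gene models with no GENCODE gene, so they are not a background of like genes. In the splice junction design alone 1 listed gene was higher and 24 were lower, against 4288 higher and 2723 lower of 27554 genes. Hepatocyte genes moved the same way (8 of 8 lower in brain), as did those of kidney tubules (8 of 9) and keratinocytes (6 of 8 tested), and the part of these cell types in the list was not tested.

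Genes of retinol transport and storage included the 1 gene higher in brain. Rpe65, the isomerase of the visual cycle, was higher in brain by 3.48 ± 0.53 on the log2 scale (limma adjusted p = 0.0012), with counts of 245 for cortex, 109 for whole brain, 40.9 for olfactory bulb and 23.0 for cerebellum in the splice junction design and 0 in the 4 nonbrain tissues. Lpl, a lipase that takes up retinyl esters with other lipids, was lower in brain (log2 difference -6.90 ± 1.38, limma adjusted p = 0.00485) and reached 143000 in heart. Stra6l, a receptor for retinol-binding protein in liver and gut, was lower as well (-4.98 ± 1.41, limma adjusted p = 0.0257), as was Bco1, which cleaves beta-carotene to retinaldehyde (-3.40 ± 0.82, limma adjusted p = 0.0122). The other 7 tested genes of the list did not pass, and Ttr was absent from the assembly.

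Enzymes that interconvert retinol and retinaldehyde, listed as retinol dehydrogenases, were lower in brain in 11 of 18 cases and higher in 0, with a median difference of -2.84. Among the 11 was Dhrs3, which is known for the step from retinaldehyde back to retinol and is also in the list of retinoic acid responsive genes. Adh1, the class I alcohol dehydrogenase, was lower in brain (log2 difference -8.83 ± 1.07, limma adjusted p = 0.000339), with 61555 in liver and 11.2 to 56.4 in the 4 brain tissues in the splice junction design. So were Rdh16 (-7.61 ± 1.03, limma adjusted p = 0.000602), Rdh7 (-7.47 ± 1.64, limma adjusted p = 0.00769) and Adh4 (-6.37 ± 1.5, limma adjusted p = 0.0108). Liver had the highest level of each of the 4 in the splice junction design, which was also the tissue with the most Aldh1a1 and Aldh1a7.

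The lists of genes downstream of retinoic acid synthesis were short, and their counts stand against 8.39% lower and 22.8% higher in brain among all genes. Of the binding proteins Crabp1, Crabp2 and Fabp5, 0 of 3 passed, and of the degrading CYP26 enzymes 0 of 2 tested passed. Of the 6 RAR and RXR receptor genes, Rxra was lower in brain (log2 difference -3.10 ± 0.63, limma adjusted p = 0.00516) and 5 did not pass. Among 11 tested retinoic acid responsive genes, the transglutaminase Tgm2 was lower in brain (-3.80 ± 0.42, limma adjusted p = 0.000225), as was Dhrs3 (-2.58 ± 0.43, limma adjusted p = 0.00196).

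Among 16 other aldehyde dehydrogenases, 6 were lower in brain and 0 higher, with a median difference of -2.12. Aldh8a1 had a log2 difference of -7.05 ± 1.45 (limma adjusted p = 0.00556), and Aldh4a1, of proline catabolism, -3.13 ± 0.60 (limma adjusted p = 0.00407). Aldh2, which oxidises acetaldehyde, had -2.97 ± 0.66 (limma adjusted p = 0.008), and Aldh3a2, which oxidises fatty aldehydes, -2.87 ± 0.95 (limma adjusted p = 0.0468). Stra6l, Bco1, Rdh7, Adh4, Aldh2, Aldh3a2 and Rpe65 no longer passed in the lncRNA design alone, with limma adjusted p of 0.282, 0.137, 0.181, 0.172, 0.0501, 0.102 and 0.355. Aldh3a2 passed in 4 and Stra6l in 9 of 15 alternative settings.

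**Figure D5:**
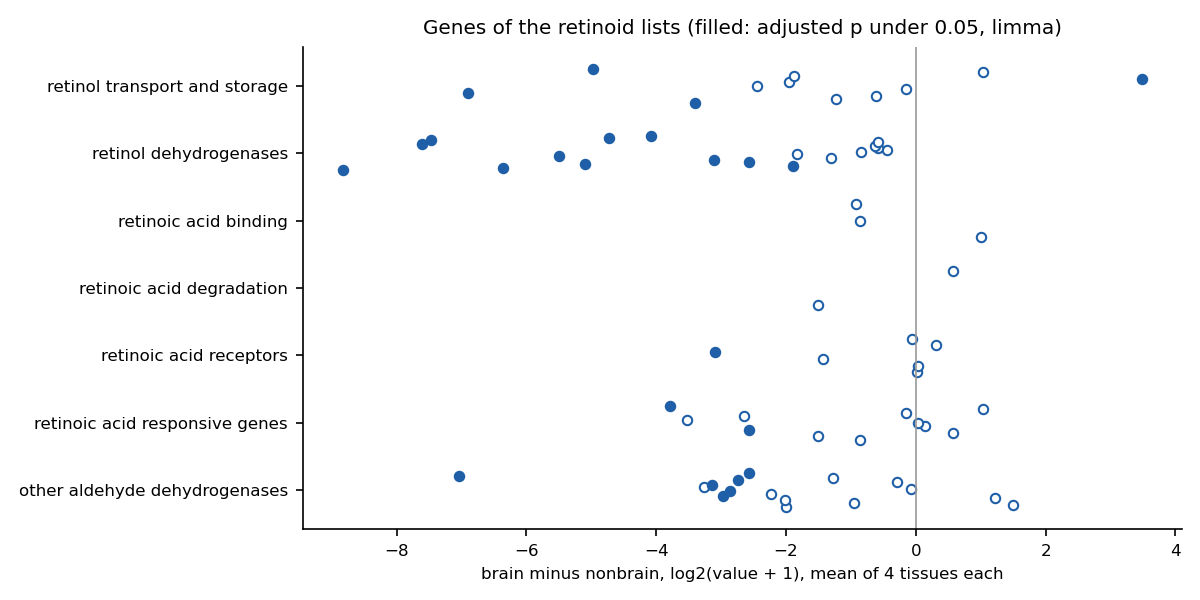
Difference between brain and nonbrain tissues (log2, brain minus nonbrain) of each tested retinoid and aldehyde dehydrogenase gene by list, with filled points for limma adjusted p under 0.05 and the vertical line at 0. Of the 60 genes, 22 filled points lie below 0 and 1, Rpe65, lies above.

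The genes whose pattern was most like that of each retinaldehyde dehydrogenase were ranked by Pearson's r of log2(value + 1), averaged over designs, among 17598 genes and over 8 tissues that share libraries and depth. They were Cry1 (0.966), Pinx1, Fam20a, Nbas and Zcchc24 for Aldh1a1, and Cfap61 (0.979), Gm19196, Gm26839, 4930451G09Rik and Rftn2 for Aldh1a2. They were Rncr4 (0.986), D130052B06Rik, Agpat3, Unc45a and Tfap2e for Aldh1a3, and Egfros (0.988), 1110028F11Rik, Egfr, F12 and Lrit1 for Aldh1a7. Between the 4 genes themselves r ranged from -0.84 (Aldh1a2 with Aldh1a7) to 0.29 (Aldh1a3 with Aldh1a7). Between the 2 designs over 8 tissues r was 0.50 for Aldh1a1, 0.90 for Aldh1a2, 0.81 for Aldh1a3 and 0.88 for Aldh1a7.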

How the data were processed

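The deposited table gives signal values per assembled transcript. Per the labels and the study's methods, the authors aligned reads of stranded libraries to GRCm38 with TopHat2, assembled transcripts guided by GENCODE M4 with Cufflinks 2.2.1, merged the assemblies of all libraries and quantified them with Cuffnorm 2.2.1. These signal values are estimated fragments times a library factor. Within each library, sums over gene models of up to 20 steps were whole multiples of 1 step (100% within 0.1 of a step), which gave 8930235 to 43889288 fragments per library. Estimates under 0.001 fragments were set to 0.

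Transcripts were given to GENCODE M21 genes (GRCm38) by largest exonic overlap on the same strand with Python 3.11.15 and pandas 2.3.3. Shares have Wilson and levels exact Poisson 95% intervals, which cover counting error only, and 3 fragments were taken as the limit that a count of 0 allows. Differences were fitted with limma 3.58.1 in R 4.3.3 on log2(value + 1) for genes with a mean value of at least 10, which understates changes of low genes, and were tested on simulated data first. The genes tested were GENCODE symbols and assembled gene models with no GENCODE gene. Sequences came from RefSeq windows (GRCm38.p6) and the GENCODE transcripts, aligned with Biopython 1.88. The table has no promoter entry for Aldh1a3.

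The labels give each sample as replicate 1 of its tissue and design and do not say how many mice there were. P-values of brain contrasts thus measure the spread between tissues. Those of the comparison of designs, fitted with tissue as a factor, measure the spread of the difference between designs over tissues. The fits treated the tissues as independent, although whole brain takes in the other brain tissues, so p-values of brain contrasts may be too small. The 4 genes and all gene lists were chosen with earlier results of these data known. Genes named from a list were those that passed the test with the largest differences, up to 4 per direction and list. Alternatives were other pseudocounts, no filter, scaling to endogenous fragments, quantile normalisation, gene models of the assembly, each design alone and each tissue left out.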

Additional observations from a re-analysis of the deposited data

Results flagged for a closer look

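Within the 4 brain tissues, Adh1 was low in cortex, with a mean log2(value + 1) of 3.69 over both designs. It was the 1 value past Dixon's critical value among the 44 groups of 4 tissues examined, and chance passes about 1 in 20 groups.

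Among the named retinoid genes, the difference between brain and nonbrain tissues differed between capture designs for 7, given as the difference in the lncRNA design minus that in the splice junction design (log2, brain minus nonbrain). It was -5.38 for Rpe65 (limma adjusted p = 0.000222), 5.13 for Stra6l (limma adjusted p = 6.08e-05), 3.49 for Bco1 (limma adjusted p = 0.0309) and 3.46 for Rdh16 (limma adjusted p = 0.00752). It was 7.38 for Rdh7 (limma adjusted p = 8.87e-05), 6.25 for Adh4 (limma adjusted p = 6.79e-05) and 3.34 for Aldh8a1 (limma adjusted p = 0.0011). In each of the 7 genes 1 tissue group was at or near 0. Rdh7 was listed at 0 in the 4 brain tissues of both designs and Rpe65 in the 4 nonbrain tissues of both, so their values hold only the difference between designs in the other group. In brain, Adh4, Rdh16, Stra6l, Bco1 and Aldh8a1 reached at most 11.9 (Aldh8a1 in cerebellum).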

How the results depend on the processing

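Of 175 values recomputed under an alternative, 153 kept their direction and side of the threshold or moved by less than the spread used for them. The design reversed the liver to whole brain difference of Aldh1a1, which was 3.15 on the log2 scale in the splice junction design, -3.23 in the lncRNA design and 1.40 when scaled to endogenous fragments. In the lncRNA design and when scaled to endogenous fragments, the log2 difference of Aldh1a2 between whole brain and heart was 2.52 and 2.14, that of Aldh1a3 between the tissue labelled testes and olfactory bulb 4.91 and 2.99, and that of Aldh1a7 between liver and the tissue labelled testes 5.78 and 3.67. The short share of Aldh1a1 was 90.9% in whole brain, 89.1% in kidney and 41.2% in liver in the lncRNA design, and 58.7%, 3.70% and 0.246% per kilobase in the splice junction design. The cause was not tested.

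With each tissue left out in turn, the difference between designs was -0.39 to 0.52 for Aldh1a1, positive without kidney (0.11) and without liver (0.52), -6.59 to -6.18 for Aldh1a2, -6.06 to -5.46 for Aldh1a3 and -6.67 to -5.96 for Aldh1a7. The brain contrast of the 2 designs differed by 0.77 to 2.74 for Aldh1a1, 0.14 to 1.09 for Aldh1a2, -0.51 to 0.58 for Aldh1a3 (negative without cerebellum, -0.51, and without heart, -0.40) and 1.19 to 2.24 for Aldh1a7, leave-one-out fits that were added after the data were seen. Calls numbered 28392 to 29062 for the designs, 6964 to 9988 for brain against nonbrain and 4268 to 5824 for the difference between designs.

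Of the listed retinoid genes, 0 were higher and 11 lower in brain in the lncRNA design alone. Without each tissue, 1 to 3 were higher (2 without heart, 3 without the tissue labelled testes) and 16 to 26 lower. Of all brain calls 73.1% were higher in brain, against 84.5% when scaled to endogenous fragments (7699 higher, 1412 lower), 50.6% after quantile normalisation (5029 and 4906) and 61.2% in the splice junction design alone (4288 and 2723). The designs were paired by tissue, and without tissue as a factor 26057 genes passed, against 29127. Replicate numbers give no further pairing, since every sample carries number 1. Most values of Aldh1a2, Aldh1a3 and Aldh1a7 in the lncRNA design were near the limit of 3 fragments and cannot rank tissues. Exceptions were Aldh1a7 in liver (437) and Aldh1a3 in the tissue labelled testes (83.2), with intervals above that of the next tissue.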

Other observations

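The lncRNA C730002L08Rik, which overlaps the upstream part of Aldh1a1 on the opposite strand, was measured in the lncRNA design at 6982 in cortex, 4044 in whole brain, 2275 in liver, 298 in olfactory bulb, 30.2 in cerebellum, 23.9 in heart, 9.12 in the tissue labelled testes and 8.45 in kidney. Cerebellum, with 40603 for Aldh1a1 in that design, thus had little of it. In the splice junction design it was between 0 and 43.5. Anxa1 (annexin A1), a gene near Aldh1a1 and Aldh1a7 on chromosome 19, had 111265 in the tissue labelled testes in the splice junction design, against 259 to 5699 in the other 7 tissues.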
